A study of Homo sapiens with 15 samples.

Results

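ICAM1, CD83, TNFAIP2, IER3 and SOD2 are 5 textbook targets of the transcription factor NF-kB whose products act at the cell surface, in signalling and in mitochondria. They were chosen by name with the response of these libraries to lipopolysaccharide (LPS) in view, so the change from control to LPS is described below without a test. Each of the 5 symbols had 1 row among the 57905 genes listed, and all 5 were among the 17214 genes tested, those with at least 0.5 FPKM (fragments mapped to a gene, scaled to transcript length and library size) in at least 3 of 12 libraries. RNA was sequenced from SW480, an established human colorectal cancer line, in 4 groups of 3 libraries. The control group was cells without a hairpin that received phosphate-buffered saline. The LPS group was the same cells given LPS at 1 µg/ml for 4 h. The PINT shRNA1 group carried a short hairpin RNA against the long non-coding RNA PINT, delivered by lentivirus, and the last group carried that hairpin and received LPS. The series title places PINT with the NF-kB subunit p65 and the methyltransferase EZH2 in inflammatory gene transcription. No group with a non-targeting hairpin is among those analysed here, so the effects of carrying a hairpin and of its target cannot be told apart.

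LPS is a glycolipid of the Gram-negative outer membrane that cells sense through TLR4. Signalling from the receptor frees NF-kB dimers from their IkB inhibitors, and the dimers enter the nucleus and bind short, partly palindromic DNA sites. ICAM1 encodes an adhesion molecule that binds integrins of leukocytes, and CD83 a surface protein best known from mature dendritic cells and activated lymphocytes. TNFAIP2 encodes a cytoplasmic protein related to the exocyst subunit EXOC3, IER3 a short-lived stress-inducible regulator of cell survival, and SOD2 the manganese superoxide dismutase of mitochondria.

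The DNA before the start sites is shown first because NF-kB acts through short sites there. RefSeq sequences on GRCh38.p14 were matched for 4 of the 5 genes, IER3 having none, and gave 8 windows of the 250 bases before a start. Letters that match an NF-kB motif are in capitals, and each stretch is limited to 30 bases. The NF-kB consensus, searched on both strands, occurred in 9.96% of 35116 such windows in the genome, and the related sequence GGAANTTCC in 0.826%. In 1 of the 2 CD83 windows 3 separate stretches matched the consensus, and the stretch nearest the start also held GGAANTTCC. G and C make up 83.2% of that window, whereas the share of 9.96% is over windows of any composition. ICAM1 had GGAANTTCC once, from base 186 to base 178 before its start, with no consensus match in the window.
ICAM1, chr19:10270924-10270952, plus strand: gctttagcttGGAAATTCCggagctgaag
CD83 site from base 134, chr6:14117628-14117657, plus strand: ggcggggacgGGGGCGCCCCggcctaagcg
CD83 site from base 76, chr6:14117687-14117716, plus strand: ctgcccgccGGGGAATCCCCCgggctggcg
CD83 site from base 51, chr6:14117712-14117740, plus strand: tggcgcgcaGGGAAGTTCCCgaacgcgcg
All 4 stretches also overlap an exon and an untranslated region annotated for the same gene in GENCODE 29, which uses the same build. The TATAAA sequence, present on either strand in 10.7% of windows, lay in the ICAM1 window from base 30 to base 25 before the start. The other CD83 window held it on each strand, from base 243 to 238 and from base 236 to 231. The single TNFAIP2 window and the 4 SOD2 windows matched neither the consensus nor GGAANTTCC. They held 1 to 5 matches each of the looser GGGNNNNNCC, which 54.4% of windows contain. A match describes letters in a window and is not evidence of binding in these cells.

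LINC-PINT, the gene of PINT, checks the labels. Control libraries had 2.51 to 2.88 FPKM of it and PINT shRNA1 libraries 4.55 to 5.34, a rise of 0.81 ± 0.12 on the log2 scale (limma, adjusted p = 0.000592), so the targeted RNA went against the label. PINT shRNA1 is therefore used here as the name of the labelled libraries. Sequencing depth, relative to control 1, lay between 0.809 and 1.05 in 3 of the groups and between 1.3 and 1.51 in the labelled group with LPS. Libraries without the hairpin had 27078 to 28430 genes above 0, and libraries labelled with it 30725 to 31961. The 7 colorectal epithelial markers were all expressed, with summed levels of 2343 to 2667 FPKM in control libraries and 2363 to 2407 FPKM after LPS. Under the label these sums were 1441 to 1536 FPKM unstimulated and 1547 to 1607 FPKM stimulated. Of the 7 markers, 5 were lower, 1 higher and 1 not called under the label, alike without and with LPS. The called ones are 85.7% of the list in each, against 27.3% and 29.2% of all genes. The sums are carried by the keratin genes KRT8, KRT18 and KRT19. EPCAM was also lower, at 205 FPKM in control and 143 in PINT shRNA1, as was VIL1, at 11.3 and 4.21. The intestinal transcription factor gene CDX2, in contrast, was 10.2 FPKM in control and 13.4 in PINT shRNA1. CDH1, the gene of E-cadherin, had 6.48 and 6.35 FPKM. In such bulk samples fewer cells of a type and less RNA per cell cannot be told apart. Markers of leukocytes summed to 8.84 to 10.8 FPKM, those of dendritic cells to 7.26 to 10.5 with CLEC10A at 0 throughout, and those of endothelium and fibroblasts to 0.801 to 1.54. Below 0.5 FPKM in every library were 4 of 10, 3 of 5 and 7 of 8 of these genes. LAPTM5 had the highest mean of the leukocyte list, 5.41 FPKM, and LAMP3 that of the dendritic list, 6.06 FPKM. TLR4 fell from 5.43, 6.32 and 5.81 FPKM in control to 2.51, 2.07 and 2.42 in PINT shRNA1 (-1.17 ± 0.08, adjusted p = 5.47e-06). TLR4 with LPS was also lower under the label (-1.03 ± 0.08, adjusted p = 1.11e-05). RELA, the gene of p65, was higher in PINT shRNA1 than in control (0.78 ± 0.22, adjusted p = 0.0247). With LPS its change was not called (0.33, adjusted p = 0.312). EZH2 was called in neither (-0.06, adjusted p = 0.349, and 0.02, adjusted p = 0.741). The part of depth, epithelial markers, TLR4 and RELA in the results below was not tested.

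The call rule was an adjusted p below 0.05 from limma, fitted to log2(FPKM + 0.5) over all 12 libraries and adjusted over 17214 genes. From control to LPS, the contrast known when the genes were chosen, all members but SOD2 were past this rule and higher. That outcome follows from the choice and supports nothing. The rule called 2.76% of all genes there, 1.57% as higher, which is given as a background only. Under the label, 2 unstimulated members were lower, ICAM1 and CD83, and TNFAIP2 was higher, in a contrast that called 27.3% of all genes. With LPS in both groups, 4 members were lower under the label and SOD2 was not called. That contrast called 29.2% of genes, 11.6% as lower. It reuses the LPS libraries whose response was in view when the members were chosen. Genes picked as high in those libraries lean towards lower in another group. The calls and p-values of this contrast are therefore not independent of the choice. In the labelled libraries LPS raised ICAM1 past the rule, where 0.186% of genes were called and 0.163% as higher. The 3 labelled LPS libraries nevertheless lay above the 3 unstimulated ones for 4 members, all but SOD2, as they did for 6.08% of genes tested. From control to LPS, groups were apart for 19.2% of genes tested, 7.22% as higher. Under the label they were apart for 41.3% without LPS, 15.8% as lower, and for 45.7% with LPS, 18.1% as lower. The LPS response was smaller under the label for ICAM1, the only member called in that test of difference, which called 0.128% of genes and 0.0929% as lower. The difference of responses contains LPS against control, the contrast known when the genes were chosen. The first 2 contrasts share the control libraries, and the others share groups in the same way. Over all genes the median log2 fold changes of these 5 contrasts were -0.038, 0.057, 0.053, -0.037 and -0.001.

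**Figure D1:**
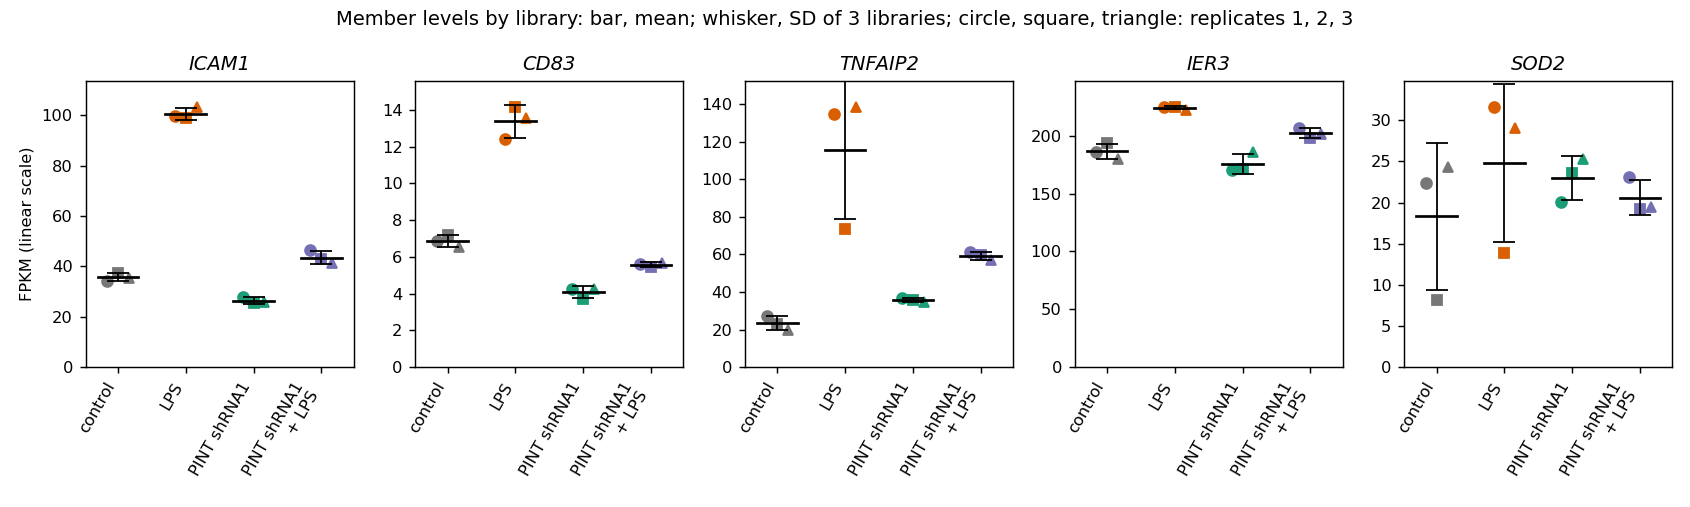
FPKM on linear axes from 0 for the 5 members in 4 groups of 3 libraries, where points are libraries, horizontal bars are means and whiskers are the SD. ICAM1 with LPS lies at 99.0 to 103 FPKM without the hairpin and at 41.2 to 46.3 under its label, and the second library of control and of LPS is the lowest of its group for SOD2.

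ICAM1 (ENSG00000090339) measured 34.3, 37.5 and 35.5 FPKM in control and 99.6, 99.0 and 103 FPKM with LPS. The mean went from 35.8 ± 1.61 (SD, n = 3) to 101 ± 2.31 FPKM, 2.81-fold, and no library of one group reached the other. In PINT shRNA1 it was 27.9, 25.6 and 25.8 FPKM, and with LPS 46.3, 43.1 and 41.2 FPKM. Every labelled library without LPS was thus below every control, as for 15.8% of genes tested. ICAM1 fell by 0.43 ± 0.05 on the log2 scale (adjusted p = 0.000249). Among LPS libraries the labelled ones had 43.5 ± 2.59 FPKM on average, a change of -1.2 ± 0.05 (adjusted p = 1.3e-07) or 2.31-fold lower. LPS still raised the adhesion gene under the label, 1.65-fold and by 0.71 ± 0.05 (adjusted p = 0.000267). In FPKM, LPS added 64.8 without the hairpin and 17.1 under its label. On the log2 scale the response differed by -0.77 ± 0.08 (95% interval -0.94 to -0.6, adjusted p = 0.00245). All 23 alternative analyses called this difference, at -0.82 to -0.71.

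CD83 (ENSG00000112149) was the least abundant of the 5 genes per unit length, with 6.86, 7.20 and 6.52 FPKM in control. LPS libraries had 12.4, 14.15 and 13.6 FPKM, so the mean went from 6.86 ± 0.341 to 13.4 ± 0.886 FPKM, 1.95-fold. The groups did not overlap. PINT shRNA1 libraries had 4.27, 3.69 and 4.27 FPKM, and those with LPS 5.64, 5.42 and 5.66. CD83 fell under the label by 0.69 ± 0.07 without LPS (adjusted p = 7.95e-05) and by 1.19 ± 0.07 with it (adjusted p = 1.47e-06). Even the highest labelled LPS library stayed under the lowest unstimulated control. Within the labelled libraries the change with LPS was 0.41 ± 0.07, 1.37-fold, and missed the threshold (adjusted p = 0.0649), although the groups were apart. It was called after median scaling (0.45, adjusted p = 0.0217) and quantile normalization (0.46, adjusted p = 0.022). The difference of the 2 LPS responses was -0.5 ± 0.1 (95% interval -0.73 to -0.28) with an adjusted p of 0.172.

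TNFAIP2 (ENSG00000185215) had the widest range, 27.4, 22.7 and 19.8 FPKM in control against 135, 73.3 and 138 with LPS. LPS replicate 2 was well under the other LPS libraries and still above every control. Mean levels were 23.3 ± 3.81 and 115 ± 36.6 FPKM, 4.95-fold, and without replicate 2 of both groups 23.6 and 137 FPKM. Labelled libraries were tight, at 36.6, 35.7 and 34.4 FPKM without LPS and 61.0, 59.4 and 56.9 with it. TNFAIP2 differed from ICAM1 and CD83 in the direction of its unstimulated change, 0.61 ± 0.2 higher under the label (adjusted p = 0.0451). The call was lost in 12 of 24 alternatives, 8 of which each left out a single library, with values of 0.5 to 0.73 and adjusted p up to 0.14. Those 8 libraries were control 2 and 3 and each of the 6 labelled ones. With LPS the gene was lower under the label by 0.9 on the log2 scale (adjusted p = 0.00684), or 1.95-fold.

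Within the labelled libraries TNFAIP2 changed by 0.73 ± 0.2 with LPS, 1.66-fold, with groups apart but an adjusted p of 0.306. The difference of its LPS responses was the widest in size of the 5 members, at -1.51 ± 0.29 (95% interval -2.15 to -0.88), yet it too missed the threshold (adjusted p = 0.124). Both calls changed with the libraries fitted. Without LPS replicate 2 the labelled response was 0.73 (adjusted p = 0.0206) and the difference -1.81 (adjusted p = 0.000595). The labelled response was also called when its 2 groups alone were fitted (adjusted p = 0.00408). Both were called with control 2 and LPS 2 left out (adjusted p = 0.0342 and 0.0034), a setting added after the data were seen. LPS 2 is the low TNFAIP2 library of its group, so leaving it out also narrows the spread.

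IER3 (ENSG00000137331) was the most abundant member, ranking 221 of 17214 tested genes by mean FPKM in control. Control libraries had 186, 193 and 180.3 FPKM and LPS libraries 225, 225 and 223. The groups were apart and the step was small, from 187 ± 6.55 to 224 ± 1.33 FPKM, 1.2-fold. PINT shRNA1 libraries, at 170.1, 171 and 186 FPKM, overlapped control (-0.09 ± 0.04, adjusted p = 0.142), and the change was called after median scaling (-0.13, adjusted p = 0.0253) and without PINT shRNA1 replicate 3 (-0.13, adjusted p = 0.0329). With LPS the labelled libraries had 207, 198 and 201 FPKM, all under the unlabelled LPS libraries. This fall of 0.15 ± 0.04 passed (adjusted p = 0.0186), but not without PINT shRNA1 with LPS replicate 2 (adjusted p = 0.0662) or 3 (adjusted p = 0.053), nor without the intensity trend (adjusted p = 0.0631). LPS within the label gave 0.2 ± 0.04, 1.15-fold, not called (adjusted p = 0.116) unless PINT shRNA1 replicate 3 was left out (0.24, adjusted p = 0.0347) or libraries were scaled to their medians (0.25, adjusted p = 0.0217). The responses of IER3 with and without the label differed by -0.06 ± 0.06 (95% interval -0.19 to 0.06, adjusted p = 0.837). Their interval does not reach the difference measured for ICAM1.

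SOD2 (ENSG00000112096) was called in none of the contrasts, and its unadjusted p was no lower than 0.257 in the 4 contrasts tested. It measured 22.4, 8.12 and 24.4 FPKM in control and 31.6, 13.9 and 29.1 with LPS. The second replicate of both groups was under the other 10 libraries. The means, 18.3 ± 8.88 and 24.9 ± 9.59 FPKM, therefore had coefficients of variation of 48.5% and 38.6%, against 11.6% and 10.4% in the labelled groups. Labelled libraries had 20.1, 23.6 and 25.3 FPKM without LPS and 23.1, 19.2 and 19.5 with it. Its LPS change without the hairpin was 0.49 ± 0.38 (95% interval -0.36 to 1.34). Under the label SOD2 changed by 0.46 without LPS (adjusted p = 0.415) and by -0.18 with LPS (adjusted p = 0.763), and the LPS change within the label was -0.15 (adjusted p = 0.942). A difference of responses of -0.64 ± 0.54 had an interval from -1.84 to 0.55 (adjusted p = 0.82).

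Leaving out control 2 and LPS 2 together, a choice made after seeing their SOD2 values, brought the SOD2 means to 23.4 and 30.3 FPKM and the LPS change to 0.37. The labelled LPS libraries were then lower than the remaining LPS libraries by 0.55 (adjusted p = 0.00753), while the unstimulated difference turned to -0.03 (adjusted p = 0.874). Removing control 2 alone left the LPS change of SOD2 at 0.00, and removing LPS 2 alone raised it to 0.86. Across tested genes, correlations of log2 values within each of the 4 groups ran from 0.982 to 0.991, and from 0.982 to 0.985 in control.

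**Figure D2:**
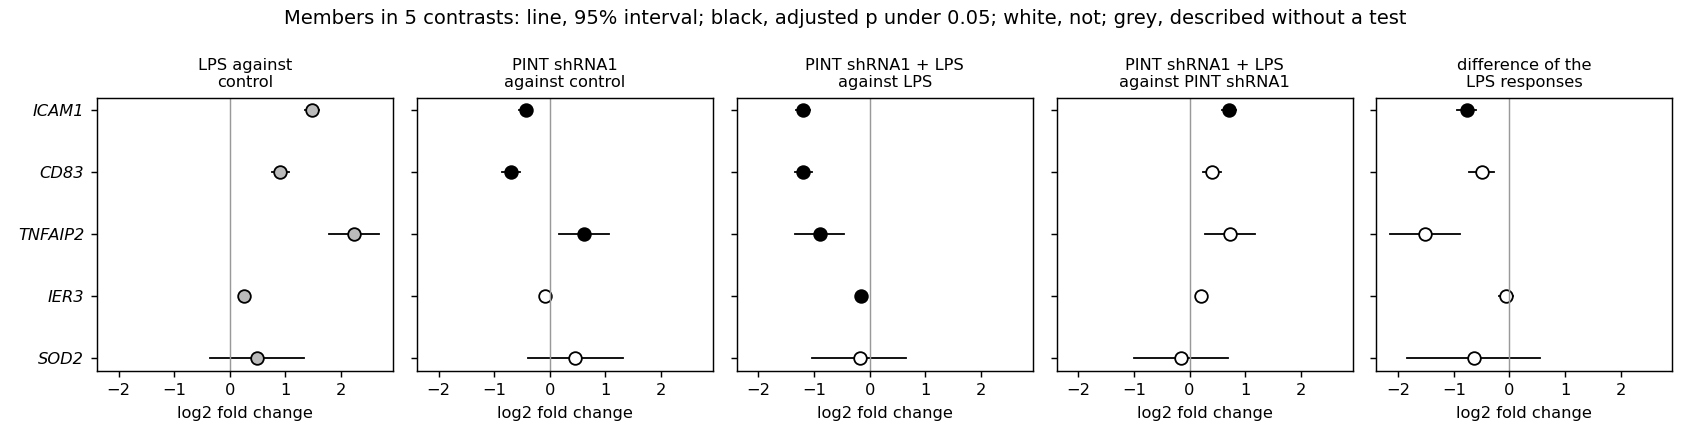
Log2 fold changes (x axis, log2(FPKM + 0.5) scale) of the 5 members in 5 contrasts with 95% intervals, where black points had an adjusted p under 0.05, white points did not and grey points are described without a test. ICAM1 is black in every tested contrast, and the intervals of SOD2 span 0 in each.

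The order of the 4 groups differed between genes. ICAM1 ran from LPS through PINT shRNA1 with LPS and control to PINT shRNA1, with no overlap between neighbours. CD83 exchanged the middle pair, its control above PINT shRNA1 with LPS, also with no overlap. For TNFAIP2 the order was LPS, PINT shRNA1 with LPS, PINT shRNA1 and control, again with neighbours apart. IER3 followed the order of ICAM1, but its control and PINT shRNA1 libraries overlapped. Each neighbouring pair of groups overlapped for SOD2. Groups without overlap are common here, at 19.2% to 45.7% of genes tested in the contrasts of 1 group with another.

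Other genes of the NF-kB pathway were read from a list of 56 canonical targets without the members, of which 46 were tested. LPS called 26 of them higher and 1 lower without the hairpin, with a median change of 0.67, so that 58.7% were called against 2.76% of all genes. The list, like the members, was chosen with earlier results of these data known. Its shares and the p-values of its genes are therefore a description and no independent support. Syndecan gene SDC4 went from 193, 187 and 188 to 566, 570 and 559 FPKM, a rise of 1.58 ± 0.03 (adjusted p = 5.85e-10). CCL2, a monocyte chemokine, rose by 1.75, the neutrophil chemokine CXCL1 by 1.02 and LTB, a TNF-family ligand, by 1.3. In the labelled libraries 9 of the 46 were higher with LPS and none lower, with a median of 0.3, or 19.6% called against 0.186%. SDC4 (0.74), CCL2 (0.79), the apoptosis inhibitor BIRC3 (1.02) and the NF-kB subunit NFKB2 (0.49) led these calls.

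The difference of responses was called for 6 of these 46 genes, each of them lower under the label, and its median over the list was -0.34, with 13% called against 0.128%. SDC4 (-0.84, adjusted p = 9.34e-06), CCL2 (-0.96, adjusted p = 0.00227) and CXCL1 (-0.68, adjusted p = 0.00319) were among them, as was SAA2, an acute-phase gene with a near-identical paralog in SAA1 (-0.63, adjusted p = 0.00364). Called or not, the log2 response was lower under the label for 36 of 46 (78.3%), against 50.3% of all genes tested, and 8 of the 46 had no positive response without the hairpin. The difference subtracts that response, positive for 38 of the 46, and the list was chosen with earlier results of these data known. All genes, of which LPS called 2.76%, are an unlike background, so the share is a description and no test. Unstimulated, the label called 6 list genes higher and 13 lower with a median of -0.03, and with LPS 5 higher and 23 lower with a median of -0.32. These are 41.3% and 60.9% of the list, against 27.3% and 29.2% of all genes. The matrix protease gene MMP9 was among the higher ones in both (3.09 and 2.88), and the cyclin gene CCND1 among the lower ones (-0.84 and -0.78).

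**Figure D3:**
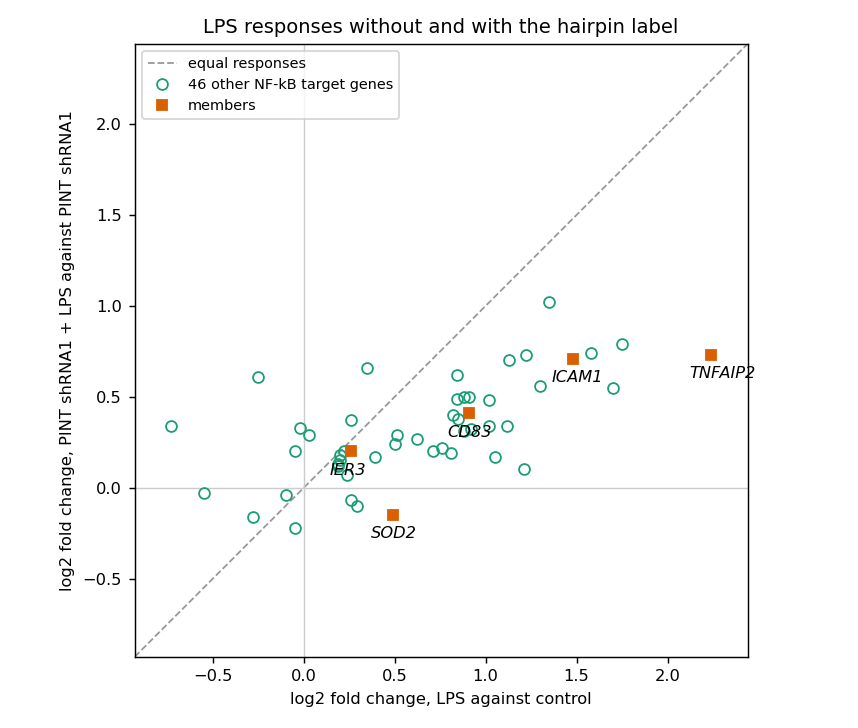
Log2 fold change with LPS in libraries without the hairpin (x axis) and in libraries labelled PINT shRNA1 (y axis) for the 5 members (squares) and 46 other NF-kB target genes (circles), where the dashed line marks equal responses. TNFAIP2, at 2.24 and 0.73, lies farthest right, and 36 of the 46 circles (78.3%) lie under the line. The genes shown were chosen with earlier results of these data known, so the share is a description.

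Of 16 tested immunoglobulin-type and selectin adhesion genes related to ICAM1, ICAM4 alone was called with LPS without the hairpin, higher by 1.12 ± 0.15 (adjusted p = 0.00226). That is 6.25% of the list, against 2.76% of all genes. Under the label 3 of the 16 were higher and 1 lower without LPS, and 3 higher and 3 lower with it. These are 25.0% and 37.5% of the list, against 27.3% and 29.2% of all genes. ALCAM, an adhesion molecule that binds CD6, was lower in both (-0.71 and -0.57), and the neuronal adhesion gene ICAM5 was higher in both (0.63 and 0.75). Of the 4 genes for the leukocyte integrins that bind ICAM1, only ITGB2 and ITGAM passed the filter. Their integrin list summed to 1.05 to 1.72 FPKM over the 12 libraries, and neither gene was called in any contrast, with 1 of them at an unadjusted p under 0.05 in each contrast of the label and none with LPS.

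Among 11 tested costimulatory and antigen-presenting surface genes, the group nearest CD83 in role, ICOSLG alone was called with LPS in both settings. It is 9.09% of the list in each, against 2.76% and 0.186% of all genes. This ligand of the T cell receptor ICOS went from 2.82, 2.62 and 2.69 FPKM to 7.67, 7.82 and 7.33 (1.34 ± 0.07, adjusted p = 3.88e-06). Under the label it was 1.67, 1.47 and 1.66 FPKM and with LPS 3.11, 2.70 and 2.81 (0.68 ± 0.07, adjusted p = 0.0047). ICOSLG also fell under the label by 0.61 without LPS and by 1.27 with it. It was the 1 gene of the list that was lower in those contrasts, where 6 others were higher (63.6% of the list called in each, against 27.3% and 29.2% of all genes), among them the class II gene HLA-DRA (1.13 and 1.02) and the TNF-family ligand CD70 (0.96 and 0.99).

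TNF-induced protein genes related to TNFAIP2 by name gave 6 tested members. TNFAIP3, the A20 inhibitor of NF-kB signalling, and its partner TNIP1 rose with LPS by 0.84 and 0.81, and in the labelled libraries by 0.62 (adjusted p = 0.00965) and 0.45 (adjusted p = 0.0172). Their differences of response were not called, TNIP1 having -0.37 ± 0.09 (adjusted p = 0.268). The exocyst complex, which tethers secretory vesicles and to which TNFAIP2 is related in sequence, had 11 tested genes and none called with LPS in either setting by limma, with 1 and 2 at an unadjusted p under 0.05. LPS called 2.76% and 0.186% of all genes in these settings. In the exocyst list EXOC4 alone was lower under the label, by 0.25 (adjusted p = 0.0409) and with LPS by 0.59 (adjusted p = 0.000334). It is 9.09% of the list in each, against 27.3% and 29.2% of all genes.

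The 4 other immediate early response genes gave no call with LPS by limma, with 2 of them at an unadjusted p under 0.05 without the hairpin and 0 under its label. LPS called 2.76% and 0.186% of all genes in these settings. IER5 had 42.7, 40.3 and 38.8 FPKM in control and 37.7, 36.5 and 35.4 with LPS (-0.15 ± 0.05, adjusted p = 0.157). IER3IP1, named for an interaction with IER3, was 2.56-fold higher under the label, from 6.83, 7.62 and 6.33 to 17.5, 17.1 and 18.5 FPKM (1.3 ± 0.09, adjusted p = 2.77e-06), and was higher there with LPS as well (1.2, adjusted p = 4.16e-06). In the superoxide and peroxide defence list, 19 genes besides SOD2 were tested and none was called with LPS in either setting, with 2 and 3 at an unadjusted p under 0.05. Under the label 2 were higher and 4 lower without LPS, and 2 higher and 7 lower with it. These are 31.6% and 47.4% of the list, against 27.3% and 29.2% of all genes. SOD1, the cytosolic copper-zinc enzyme, fell by 0.27 ± 0.06 under the label (adjusted p = 0.00507), and the glutathione reductase gene GSR by 0.44 and with LPS by 0.42.

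For each member the genes most alike in pattern were those with the highest Pearson r of log2(FPKM + 0.5) over the 12 libraries, out of 12572 candidates with a mean of at least 1 FPKM. The libraries share group structure and depth, so these values describe and test nothing. For ICAM1 they were DUSP5 (0.99), ICOSLG (0.989) and CXCL1 (0.989). IFIH1 (0.983) and WNT10A (0.982) were among the nearest to CD83. IFIH1, a sensor of double-stranded RNA, had 11.8 to 12.1 FPKM in control, 15.5 to 17.3 with LPS, 8.71 to 9.20 in PINT shRNA1 and 9.66 to 11.4 with both. TNFAIP2 was nearest to SMAD3 (0.972), HIVEP2 (0.953) and NFKB1 (0.952). SMAD3, a transducer of TGF-beta signals, also had its lowest LPS level in replicate 2, at 26.1, 22.8 and 25.4 FPKM. It was picked for its likeness to TNFAIP2, so this is no separate observation. IER3 was nearest to CPLX2 (0.964), SLC2A6 (0.963) and TNIP1 (0.962).

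Between members, r was 0.946 for ICAM1 and CD83, 0.934 for ICAM1 and IER3, and 0.629 for CD83 and TNFAIP2. SOD2 had -0.003 to 0.412 with the other 4. Its nearest genes were RIOK3 (0.875), OIP5-AS1 (0.851) and DUXAP8 (0.824). OIP5-AS1, a long non-coding RNA, measured 15.0, 6.65 and 16.6 FPKM in control and 14.1, 7.47 and 13.9 with LPS. RIOK3, an atypical kinase gene, measured 18.4, 14.1 and 19.7 and then 20.2, 14.4 and 19.6 FPKM. Replicate 2 was the lowest of its group in these 4 cases, as it was for SOD2. Both genes were picked for their likeness to SOD2 over these same libraries, so this sharing follows from the choice. The pseudogene DUXAP8 had 0.112 FPKM in control 2, against 3.85 and 4.56 in the other controls. What sets these 2 libraries lower for SOD2 was not tested.

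**Figure D4:**
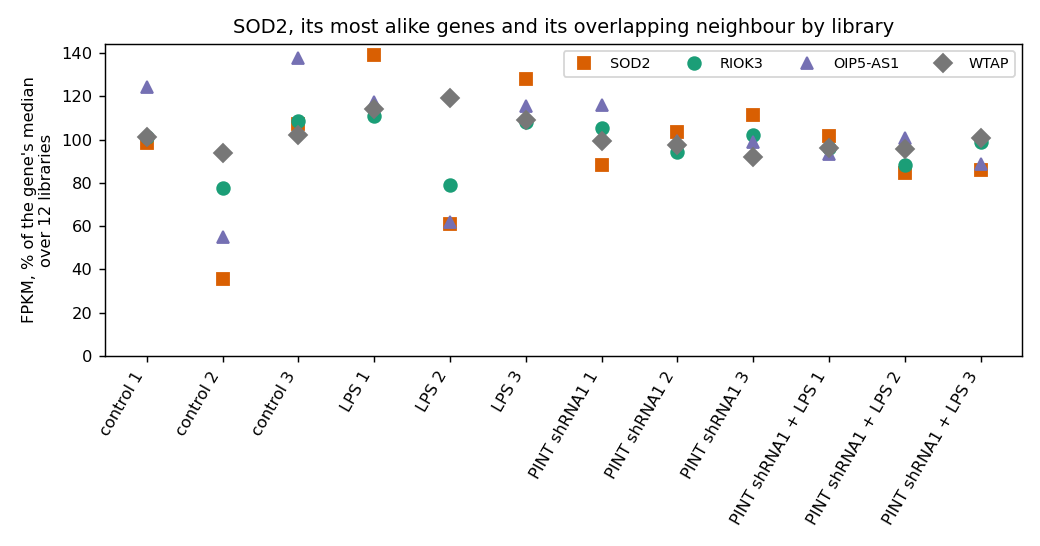
FPKM in each of the 12 libraries as a percentage of the gene's own median over them, for SOD2, RIOK3, OIP5-AS1 and WTAP, on a linear axis from 0. Control 2 and LPS 2 are low for SOD2 (8.12 and 13.9 FPKM), OIP5-AS1 and RIOK3, and not for WTAP (40.3 and 51.3 FPKM). OIP5-AS1 and RIOK3 were picked for their likeness to SOD2 over these libraries.

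Neighbouring genes were taken from RefSeq on GRCh38.p14. WTAP, which overlaps SOD2, had 43.5, 40.3 and 43.9 FPKM in control and 49.1, 51.3 and 46.9 with LPS, so it did not share the low libraries. It was lower under the label with LPS, by 0.23 (adjusted p = 0.00642). ICAM4, the gene after ICAM1, had 0.247 to 0.352 FPKM in control and 1.11 to 1.40 with LPS, and under the label 0.328 to 0.439 and 0.254 to 0.558. Its labelled groups overlapped, unlike those of ICAM1. CTD-2369P2.8, an antisense gene that overlaps the end of ICAM1, had 0.249 to 0.647 FPKM in control and 0.981 to 1.2 with LPS (0.79 ± 0.17, adjusted p = 0.0361). Whether reads were counted by strand is not given in the sources used here, so reads of ICAM1 and of this gene cannot be told apart with certainty. JARID2, next to CD83, moved the other way under the label, from 3.32 to 3.93 FPKM in control to 7.19 to 7.65 (0.96 ± 0.08, adjusted p = 1.07e-05). DDR1, next to IER3, was higher in every LPS library than in every control, at 44.8 to 48.1 against 37.7 to 43.7 FPKM, without passing the threshold (0.21, adjusted p = 0.129). EXOC3L4, beside TNFAIP2 and like it a relative of EXOC3, did not exceed 0.452 FPKM and was not tested.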

How the data were processed

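The authors' deposited table lists FPKM for each Ensembl gene. HISAT2 2.1.0, StringTie 1.3.4d, fastp and the GRCh37/hg19 build are named, without roles, in the submitters' processing notes. The 12 columns of the 4 groups were used as deposited, and 6 other columns were not used. The labels list 15 samples, 2 for each RNA number of PINT shRNA1, while the table has 1 column per number. Whether replicates were separate cultures is not stated, and p-values then reflect only the spread between these libraries, which may be technical. Absolute depth is unknown, and relative depth was read from ratios of low values.

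The test was limma 3.58.1 (R 4.3.3) on log2(FPKM + 0.5), which understates changes of low genes: a group-means fit of 12 libraries with an intensity trend, two-sided, with Benjamini-Hochberg adjustment over 17214 genes. The pipeline was tested on simulated data. The members and gene lists were chosen with earlier results of these data known, and the motifs after the sequences were seen. Named are the members in every contrast, the 3 genes most alike to each, neighbouring protein-coding genes, LINC-PINT, TLR4, RELA and EZH2, and, per list, up to 4 called genes with the smallest p or, where none was called, up to 2 with the highest mean. A gene that this rule names is not reported here. CTD-2369P2.8 was added after its values were seen. Alternatives were other scalings, pseudocounts (0.1, 1), filters, moderation, a replicate block, a fit of the compared groups alone and leaving out each library, and, added after seeing the data, leaving out control 2 and LPS 2 together. All filters were applied to the 12 libraries together.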

Additional observations from a re-analysis of the deposited data

Results flagged for a closer look

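The LPS response of ICAM1 differed between libraries without the hairpin and libraries labelled PINT shRNA1, by -0.77 on the log2 scale in a test of the difference itself (limma, adjusted p = 0.00245). ICAM1 rose in both settings, and the interval of the difference was -0.94 to -0.6. LPS against control, 1 of the 2 responses compared, was known when the gene was chosen.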

How the results depend on the processing

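Over the alternatives run, the counts of members called under the label stayed within 1.5 times of 3 without LPS and of 4 with it. For LPS within the labelled libraries the count of 1 became 3 with median scaling, 2 with quantile normalization, 2 when only the groups compared were fitted, 2 with control 2 and LPS 2 left out, and 1 to 2 without single libraries. For the difference of responses it became 2 with control 2 and LPS 2 left out and 1 to 2 without single libraries. SOD2 turned sign under the label, to -0.03 with control 2 and LPS 2 left out, with values of -0.03 to 0.73 without single libraries, and with LPS at -0.55 to 0.03 without single libraries. The cause was not tested. Genes called with LPS, 475 in all, became 311 with the replicate block, 127 with only the groups compared, 295 without control 2, 293 without LPS 3 and 242 without control 2 and LPS 2. Within the label, 32 became 59 with median scaling, 57 with quantile normalization, 18 without the trend, 17 with the replicate block, 19 without PINT shRNA1 1 and 20 without PINT shRNA1 2. The 22 genes of the difference became 14 with the replicate block. Of calls with LPS, 271 were higher and 204 lower, against 440 and 116 with median scaling and 299 and 128 with quantile normalization. Under the label the split of 2913 and 1780 became 2215 and 2151, and with LPS that of 3039 and 1994 became 2349 and 2530, with median scaling. Replicate numbers did not pair the libraries: same-numbered deviations correlated at -0.048 to 0.057, at most 2 of 3 libraries of a group matched their own number best, and the replicate block changed no call of a member. FPKM give no counting error for a gene, so precision is limited to the spread of 3 libraries.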
